A study of Homo sapiens with 36 samples.

Results

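The 10 genes described here build and resolve the mitotic spindle: KIF11, HMMR, TPX2 and ASPM of the spindle, CENPE and CENPF of the kinetochore, the protease gene ESPL1 that frees the sister chromatids, and PRC1, KIF23 and KIF20A of cytokinesis. They were chosen by name, and all 10 of the 10 were among the 15891 genes of the authors' table. The study followed HCT116 cells, a line from a human colorectal carcinoma, through 10 µM 5-fluorouracil (5-FU), a pyrimidine analogue that blocks thymidylate synthesis. The drug was given for 48 h, and cells were collected before it (D0), during it (D1 and D2) and afterwards (D7, D14 and D16). All cells were exposed briefly to the elongation blocker emetine, and each collection was read as cytoplasmic RNA and as a heavy polysomal pool, that is mRNA sedimenting with more than 3 ribosomes. The 12 groups (6 days in 2 fractions) had 3 libraries each, lettered A, B and C, so that D0 cytoplasm and D0 heavy pool were the untreated groups and the other 10 groups had all received the drug. No untreated culture of a later day was included, so drug and time in culture cannot be told apart, and how the cells were kept after the drug is not given in the sources used here.

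Mitotic spindle genes are transcribed late in the cell cycle, when a cell has copied its DNA and prepares to divide. Their promoters often carry a cell cycle genes homology region (CHR) and CCAAT boxes. The CHR is bound by the MuvB core, which represses these genes as part of the DREAM complex in arrested cells and activates them together with B-MYB and FOXM1 in dividing ones, and p53 reaches them largely through the inhibitor p21 and this switch. The CCAAT box is bound by the trimer NF-Y.

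KIF11 (ENSG00000138160, chromosome 10, 92593286 to 92655395) encodes the tetrameric kinesin that slides antiparallel microtubules and pushes the spindle poles apart. HMMR (ENSG00000072571, chromosome 5, 163460203 to 163491945) encodes a spindle pole protein that helps to position the spindle. TPX2 (ENSG00000088325, chromosome 20, 31739271 to 31801805) encodes the activator and spindle targeting factor of Aurora A. ASPM (ENSG00000066279, chromosome 1, 197084128 to 197146694) encodes a minus-end protein that focuses the poles. CENPE (ENSG00000138778, chromosome 4, 103105806 to 103198409) encodes the kinesin that carries chromosomes to the metaphase plate, and CENPF (ENSG00000117724, chromosome 1, 214603195 to 214664588) encodes a large outer kinetochore protein. ESPL1 (ENSG00000135476, chromosome 12, 53268299 to 53293643) encodes separase, which cuts cohesin. PRC1 (ENSG00000198901, chromosome 15, 90966038 to 90995629) encodes the crosslinker of the central spindle. KIF23 (ENSG00000137807, chromosome 15, 69414246 to 69448427) encodes the kinesin of the centralspindlin complex, and KIF20A (ENSG00000112984, chromosome 5, 138178719 to 138187715) encodes the kinesin that brings Polo-like kinase and the chromosomal passenger complex to the midzone. Positions are those of GENCODE 29 on GRCh38, the build that the submitters' processing notes name.

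Promoter windows (250 bases before to 50 after the start) were found for 9 of the 10 genes among RefSeq sequences on GRCh38.p14. They were searched on both strands for the CHR letters TTTGAA or TTCGAA, for the CCAAT box as CCAAT, and for the E2F-type letters TTCCCGC; these motifs do not overlap each other. A CHR match was present in 7 of the 9 windows and in 16.6 percent of all 27305 promoters of the same length. CCAAT was present in 8 of 9 (35.7 percent of all promoters), at least 2 copies of it in 4 of 9 (11.2 percent), and the E2F-type letters in 0 of 9 (6.6 percent). Because the members fell together on D2, the CHR match of all 7 genes is printed with up to 12 bases on either side, on the strand of the gene, with the CHR letters and any CCAAT letters in capitals (TTCAAA and ATTGG are the opposite-strand forms). The windows lie at chr10:92593090-92593119 (KIF11), chr5:163460595-163460624 (HMMR), chr1:197146765-197146794 (ASPM), chr1:214603223-214603244 (CENPF), chr12:53268256-53268285 (ESPL1), chr15:90994538-90994567 (PRC1) and chr15:69414282-69414311 (KIF23), the ASPM and PRC1 windows on the minus strand and the others on the plus strand. The KIF11, ASPM and ESPL1 windows lie upstream of the gene as GENCODE 29 annotates it, and the other 4 in annotated exons of their genes (KIF23's also in exons of AC027237.3).
KIF11: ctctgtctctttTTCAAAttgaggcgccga
HMMR: gtggggagaTTTGAATTTGAAaccggtagg
ASPM: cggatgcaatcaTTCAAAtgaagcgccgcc
CENPF: ggctgcgggcagTTTGAAttag
ESPL1: cagccgcggataTTTGAAaggagggtctgg
PRC1: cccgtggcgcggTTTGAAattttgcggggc
KIF23: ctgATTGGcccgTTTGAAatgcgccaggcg

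In 5 of these genes the CHR match lay 20 to 55 bases before the RefSeq start (KIF11 at 28, HMMR at 28 and again at 22, ESPL1 at 31, PRC1 at 20 and KIF23 at 55). It lay 113 bases before the start in ASPM and 41 bases after it in CENPF. KIF20A had 2 CCAAT matches and no CHR match, and CENPE had a match to neither. Stretches upstream of the annotated exons are given for ASPM, above its D0 level in the heavy pool on D16, and ESPL1, among the 8 members below theirs. KIF11 and CENPF also had such stretches, which are not printed. A link between the matches and the course of the genes was not tested. The ASPM stretch (chr1:197146695-197146829, minus strand) holds 3 CCAAT matches around its CHR match, with another between that stretch and the start. The ESPL1 stretch (chr12:53268139-53268298, plus strand) holds 1. A match describes letters only, and whether a factor binds there was not measured.
ASPM upstream: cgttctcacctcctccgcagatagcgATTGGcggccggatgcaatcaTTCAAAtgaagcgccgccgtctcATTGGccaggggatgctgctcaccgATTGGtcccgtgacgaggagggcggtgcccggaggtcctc
ESPL1 upstream: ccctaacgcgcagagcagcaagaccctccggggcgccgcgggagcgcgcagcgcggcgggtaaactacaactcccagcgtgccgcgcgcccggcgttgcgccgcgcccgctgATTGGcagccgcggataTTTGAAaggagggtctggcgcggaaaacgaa

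Summed over the listed genes, cytoplasmic libraries held 41.0 to 103.6 M reads (the highest was D2 C; M is mega) and heavy pool libraries 46.2 to 55.7 M. Cytoplasmic libraries scattered more around their group, with a standard deviation over genes of 0.16 to 0.551 on the log2 scale against 0.107 to 0.208 in the heavy pool. Cytoplasmic D7 A had the highest share of ribosomal protein reads (21.5 percent), and in cytoplasmic D14 B and D16 B the deviation from the group mean rose with gene GC content (r over all genes with a GC value 0.80 and 0.75). In the heavy pool the ribosomal protein share was 4.7 to 6.5 percent in all libraries from D0 to D7. It was 9.4 to 11.3 percent in all D14 and D16 libraries of that pool. Of 8 colorectal epithelial markers, EPCAM, CDH1, KRT8, KRT18, KRT19 and CDX2 were listed and VIL1 and LGALS4 were not. Of 8 markers of other lineages, COL1A1 was listed.

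Values below are normalised read counts, and differences are on the log2(value + 1) scale with limma's standard error (n = 3 libraries a group) and limma's Benjamini-Hochberg adjusted p over all genes tested. A gene passed at an adjusted p under 0.05. Shares of all genes called lower, higher or changed are from the model with all libraries, the deposited scaling and no term for the letter. Member counts under other settings have no such share beside them. The added 1 understates changes of low genes. The labels call the letters batches and do not say whether they were separate cultures, so the p-values measure the spread between these samples. All comparisons with D0 use the same D0 libraries. Levels of RNA from whole cultures cannot tell fewer cells in late cell cycle phases from less RNA per cell.

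Before the drug the order of the levels was led by TPX2. Per kilobase of annotated exon, its cytoplasmic level was 3507 ± 174 (SD, n = 3), followed by KIF20A at 968 ± 66.3. KIF23 (445 ± 52.1), HMMR (393 ± 46.6) and KIF11 (378 ± 26.6) came next, and the ranges of these 3 genes overlapped. CENPF (270 ± 79.9) and ESPL1 (230 ± 44.9) overlapped with each other. CENPE (41.9 ± 18.4) overlapped with PRC1 (55.6 ± 8.30) and with ASPM (35.5 ± 6.87), while all 3 PRC1 libraries lay above those of ASPM. TPX2 (5473 ± 500 per kilobase in the heavy pool) and KIF20A (1833 ± 161) again stood first, and CENPE (25.9 ± 7.39) and ASPM (25.8 ± 4.87) last. The low level of PRC1 is uncertain: GENCODE 29 places a same-strand readthrough gene over 29440 bases of it, and an antisense gene, PRC1-AS1, over 22280 bases, and how shared reads were assigned is not given in the sources used here. HMMR, CENPF, KIF23 and KIF20A also overlap opposite-strand genes (HMMR-AS1, ABHD17AP3, AC027237.3, and BRD8 with CDC23), so their reads cannot be fully told apart without the strand setting of the counting.

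**Figure D1:**
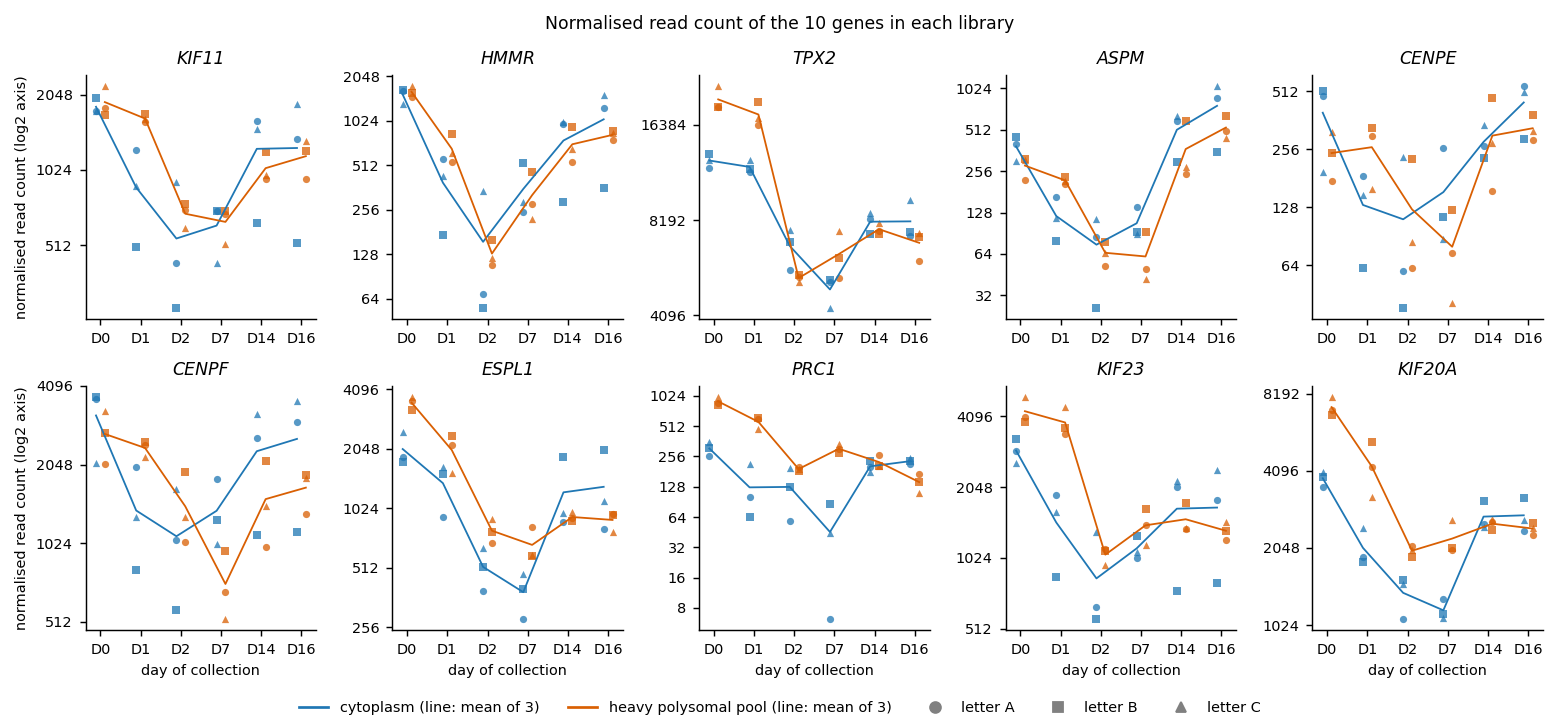
Normalised read count (log2 axis, its range differing between panels) of each gene in every library, against the day of collection, with days evenly spaced. Blue marks are cytoplasm and orange marks the heavy polysomal pool, symbols give the letter, and lines join the means of 3 libraries; all 10 genes were lowest on D2 or D7 in the heavy pool except PRC1, which was lowest on D16.

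Over the whole course, 9 of 10 members changed in the cytoplasm on some day, as did 61.5 percent of all genes (limma F test), and CENPF did not pass (adjusted p = 0.0507). In the heavy pool 10 of 10 changed, beside 95.1 percent of all genes. Without letter A the cytoplasmic count was 5, and with the letters as a replicate block it was 10. The 61.5 percent does not belong to those settings, so these counts cannot be set against it.

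HMMR was lower on D1 in both fractions. On D1 in the cytoplasm 3 members were lower than at D0, namely HMMR (-2.14 ± 0.67, adjusted p = 0.0337), ASPM (-1.72 ± 0.50) and KIF20A (-0.91 ± 0.19), and 7.09 percent of all genes were called lower. The median over the 10 was -1.21 against -0.01 over all genes. With the letters as a replicate block, 7 members passed, adding CENPE, CENPF, KIF11 and KIF23. Leaving out letter A left KIF20A, leaving out B left ASPM, and leaving out C left 0 members called. Without cytoplasmic D7 A the count was 5, and without cytoplasmic D14 B and D16 B it was 6. The cytoplasmic D1 difference ran with the GC content of the transcripts over all genes with a GC value (r = 0.48; median -0.60 in the 10 percent of genes lowest in GC and 0.49 in the 10 percent highest) and over the members (r = 0.69). With the GC correction HMMR was at -1.51, ASPM at -1.10, KIF20A at -0.85 and ESPL1 at -0.90, which all passed, and of the members that did not pass KIF11 went from -1.16 to -0.58 and CENPE from -1.60 to -0.94. In the heavy pool 4 members were lower on D1 (26.9 percent of all genes were): HMMR (-1.30 ± 0.22), ESPL1 (-0.82 ± 0.15), KIF20A (-0.79 ± 0.13) and PRC1 (-0.68 ± 0.15).

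By D2, the end of the drug, 9 of 10 members were lower in the cytoplasm and 10 of 10 in the heavy pool, where 10.6 and 34.5 percent of all genes were called lower. The median difference over the 10 was -1.91 in the cytoplasm and -1.95 in the heavy pool, and over all genes 0.00 and -0.03. Under total-sum scaling, which sets every library to the same total, the heavy pool median of all genes was 0.35 on D2, the share of called genes that were higher went from 46.8 to 71.7 percent, and 8 members passed, all but CENPE and CENPF. PRC1 did not pass in the cytoplasm (-1.42 ± 0.65, adjusted p = 0.127). Without letter A, 5 cytoplasmic calls were left (ASPM, ESPL1, HMMR, KIF20A and TPX2). On D7 8 of 10 were lower in the cytoplasm (15.7 percent of all genes) and again 10 of 10 in the heavy pool (36.5 percent). Cytoplasmic CENPE (-1.40 ± 0.59, adjusted p = 0.0726) and CENPF (-1.20 ± 0.49, adjusted p = 0.0631) did not pass on D7. Both passed with the replicate block (adjusted p = 0.0443 and 0.0162) and under total-sum scaling. ESPL1, KIF20A, PRC1 and TPX2 were the 4 cytoplasmic D7 calls without letter A and also the 4 without letter C. Without the library D7 A, HMMR (-1.98, adjusted p = 0.0712) and KIF23 (-1.32, adjusted p = 0.0716) did not pass on D7. Total-sum scaling moved the share of called genes that were higher on D7 from 53.9 to 36.2 percent in the cytoplasm and from 42.5 to 64.5 percent in the heavy pool, with 10 members lower in each. On D1 it moved that share from 60.5 to 46.1 and from 42.7 to 67.9 percent, with 3 and 4 members lower as before. The heavy pool call of CENPE on D7 did not pass without letter C (-1.10, adjusted p = 0.0621).

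Among the spindle genes, HMMR had cytoplasmic values of 1635, 1668 and 1335 in letters A, B and C at D0 and of 69, 55 and 341 on D2. Heavy pool HMMR went from 1486, 1574 and 1774 to 109, 158 and 120. All D2 libraries lay below all D0 libraries in both fractions, and cytoplasmic D2 C stood above the other D2 libraries. HMMR was 13.9-fold lower in the cytoplasm (-3.80 ± 0.67, adjusted p = 0.000394) and 12.5-fold lower in the heavy pool (-3.65 ± 0.22, adjusted p = 1.64e-12). By D7 it had risen in the heavy pool from its D2 level to 279, 462 and 223 (1.26 ± 0.22, adjusted p = 3.56e-05).

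ASPM stood at 404, 452 and 305 in the cytoplasm at D0 and at 84, 26 and 114 on D2 (-2.58 ± 0.50, adjusted p = 0.000952). Its heavy pool values were 220, 315 and 308 at D0, 52, 79 and 65 on D2 and 50, 92 and 42 on D7. The D2 and D7 libraries were all below the D0 libraries, and D7 did not differ from D2 beyond the error (-0.15 ± 0.28, adjusted p = 0.664). KIF11, the motor that separates the poles, fell in the heavy pool from 1813, 1705 and 2231 at D0 to 705, 745 and 601 on D2 (-1.48 ± 0.14, adjusted p = 4.73e-09). Cytoplasmic KIF11 spread more widely on D2, at 433, 286 and 912 against 1757, 1984 and 1764 at D0 (-1.92 ± 0.48, adjusted p = 0.0069).

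TPX2 had the smallest standard error of the 10 in both fractions. In the cytoplasm it did not pass on D1 (11611, 11899 and 12682 after 11983, 13232 and 12710 at D0; difference -0.07 ± 0.16, adjusted p = 0.793) and was lower on D2 (5714, 7007 and 7624). The step from D1 to D2 passed (-0.84 ± 0.16, adjusted p = 0.00355), but not under total-sum scaling or without letter B or C. Heavy pool TPX2 went from 18737, 18646 and 21810 at D0 to 5404, 5473 and 5234 on D2. The fall on D2 was 3.66-fold in the heavy pool (-1.87 ± 0.11) and 1.88-fold in the cytoplasm (-0.91 ± 0.16), and this difference between the fractions is given further on.

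The kinetochore genes were lower on D2 with less even replicates. CENPE in the cytoplasm had 481, 511 and 196 at D0 and 60, 38 and 234 on D2, so that letter C was higher on D2 than at D0. Its call on D2 (-2.14 ± 0.59, adjusted p = 0.012) was lost without letter A (adjusted p = 0.157) and without letter B (adjusted p = 0.185). Heavy pool CENPE went from 175, 243 and 315 to 62, 228 and 85 on D2 (-1.16 ± 0.42, adjusted p = 0.0206) and to 74, 124 and 41 on D7. The heavy pool D2 and D0 libraries of CENPE overlapped, and those of D7 and D0 did not. The D2 call was lost without letter A, without letter C and under total-sum scaling.

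CENPF in the heavy pool was 2066, 2710 and 3273 at D0, 1038, 1926 and 1289 on D2, and 666, 954 and 525 on D7. It fell further from D2 to D7 in that pool (-0.98 ± 0.24, adjusted p = 0.00147), while HMMR, PRC1 and KIF23 rose over the same step and the other 6 did not pass. The rise of KIF23 (0.40 ± 0.14) did not pass without letter A or B or under total-sum scaling, TPX2 passed as higher with the replicate block (0.24, adjusted p = 0.034), under TMM scaling and without letter A, and ESPL1 as lower without letter A (-0.51, adjusted p = 0.0347). Over all genes 28.3 percent fell and 28.7 percent rose in that step. In the cytoplasm CENPF was 3666, 3728 and 2081 at D0 and 1051, 570 and 1645 on D2 (-1.62 ± 0.49, adjusted p = 0.0209), a call lost without letter A and without letter B.

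The mean level of separase mRNA was at its lowest on D7 in both fractions. Cytoplasmic ESPL1 was 1866, 1763 and 2499 at D0, 922, 1534 and 1662 on D1, 390, 517 and 642 on D2 and 281, 400 and 473 on D7. On D7 it was 5.36-fold lower in the cytoplasm (-2.42 ± 0.35, adjusted p = 0.000102) and 5.31-fold lower in the heavy pool (-2.41 ± 0.15, adjusted p = 9.07e-12), where its values were 3563, 3209 and 3765 at D0 and 824, 584 and 594 on D7. No D7 library reached a D0 library in either fraction.

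Among the cytokinesis genes, PRC1 had heavy pool values of 872, 828 and 1006 at D0, 202, 183 and 191 on D2, and 301, 274 and 340 on D7. The rise from D2 to D7 passed (0.66 ± 0.15, adjusted p = 0.000863). In the cytoplasm PRC1 was 261, 307 and 353 at D0 and 6.20, 85.8 and 44.4 on D7, the first of these in the library D7 A, where a single read was worth 2.07. The cytoplasmic D7 difference was -3.33 ± 0.65 (adjusted p = 0.00122) and, still called, -2.29 without D7 A. PRC1 was the single member called for the cytoplasmic step from D2 to D7 (-1.91 ± 0.65, adjusted p = 0.0457; 11.8 percent of all genes were lower). Without D7 A the step was -0.87 (adjusted p = 0.254), and it did not pass when any letter was left out, without D2 C, without D14 B and D16 B or under total-sum scaling either. With the replicate block HMMR (1.61, adjusted p = 0.0363) and TPX2 (-0.45, adjusted p = 0.0326) passed as well.

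KIF20A, a kinesin of the midzone, was 3548, 3883 and 4065 in the cytoplasm at D0, 1880, 1812 and 2458 on D1 and 1082, 1541 and 1483 on D2. Its D2 difference was -1.50 ± 0.19 (adjusted p = 1.66e-05) there and -1.86 ± 0.13 (adjusted p = 3.21e-11) in the heavy pool, with no overlap between D2 and D0 in either. Heavy pool KIF23, at 4078, 3869 and 4963 at D0, did not pass on D1 (3438, 3638 and 4485; -0.16 ± 0.14, adjusted p = 0.346) and was at 1119, 1098 and 951 on D2. The step from D1 to D2 was -1.86 ± 0.14 for KIF23 (adjusted p = 1.81e-10). All 10 members fell in this step in the heavy pool, where 24.8 percent of all genes did, but without letter A the falls of CENPE (-0.72, adjusted p = 0.273) and CENPF (-0.57, adjusted p = 0.0903) did not pass. In the cytoplasm TPX2 and ESPL1 fell in it (4.89 percent of all genes did). KIF20A joined them with the replicate block (-0.59, adjusted p = 0.0372). With the GC correction 7 did, and under total-sum scaling, without letter B and without letter C 0 did.

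**Figure D2:**
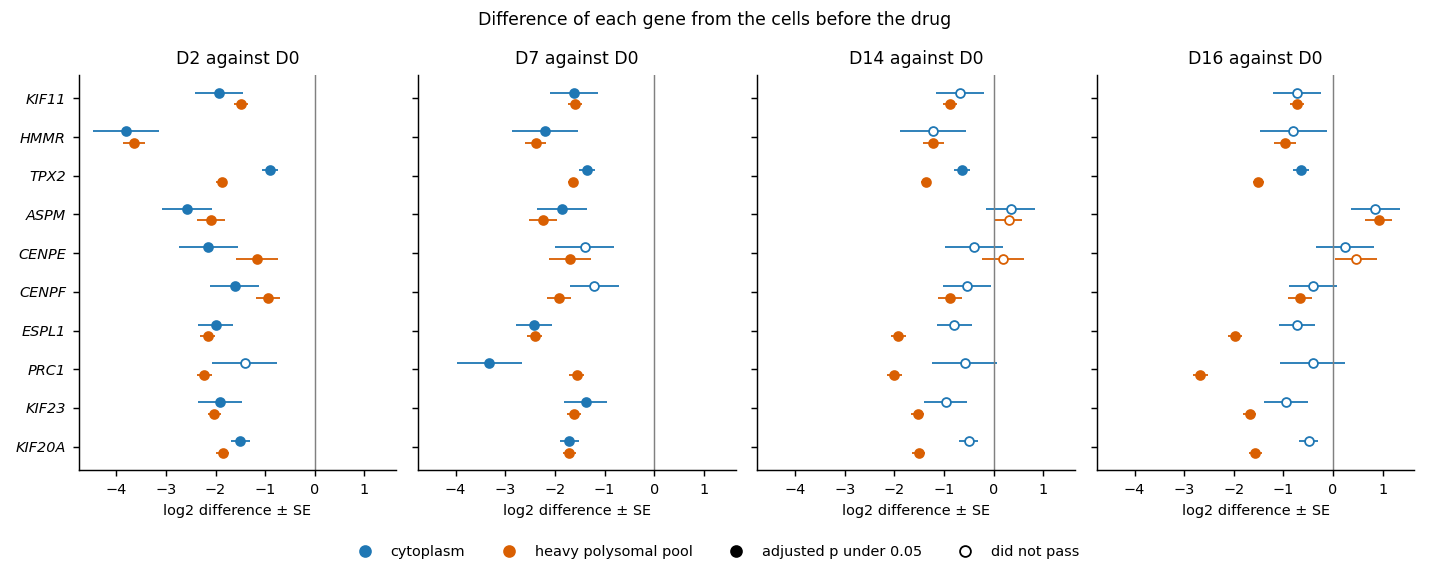
Difference from D0 (log2 axis, ± SE, n = 3 libraries a group) of each gene on D2, D7, D14 and D16, in the cytoplasm (blue) and the heavy polysomal pool (orange). Filled marks passed at an adjusted p under 0.05 and open marks did not: all 10 heavy pool marks are filled and below 0 on D2 and D7, and on D16 ASPM is the filled mark above 0.

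The return was unequal. From D7 to D14, 5 members rose in the cytoplasm (16.5 percent of all genes did) and 7 rose in the heavy pool (29.5 percent). The cytoplasmic 5 were PRC1 (2.74 ± 0.65), ASPM (2.20 ± 0.50), ESPL1 (1.63 ± 0.35), KIF20A (1.21 ± 0.19) and TPX2 (0.72 ± 0.16). Without cytoplasmic D7 A, PRC1 was at 1.70 (adjusted p = 0.0228) and ASPM, at 2.41, stood above it. ASPM (2.54 ± 0.28, adjusted p = 8.28e-08) and CENPE (1.90 ± 0.42) rose most in the heavy pool, with HMMR, CENPF, KIF11, ESPL1 and TPX2 between 0.28 and 1.17. PRC1 moved the other way in the heavy pool (-0.44 ± 0.15, adjusted p = 0.0174; 28.9 percent of all genes were lower), and was not called without letter B or C. The cytoplasmic count was 9 without letter B, 2 (ESPL1 and KIF20A) without letter C, where PRC1 had an adjusted p of 0.0506, and 8 without D14 B and D16 B. The heavy pool count of 8 calls was 5 without letter B, and TPX2 did not pass without letter A either (0.17, adjusted p = 0.281). Total-sum scaling moved the share of called genes that were higher in the cytoplasm from 46.4 to 76.2 percent and left 5 members higher.

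From D14 to D16, 0 members passed in the cytoplasm, where 0.00 percent of all genes passed in limma. An unadjusted p under 0.05 was held by 230 of all genes and 0 members. This test ignored the pairing by letter, although cytoplasmic D14 B and D16 B deviated alike (r with GC content 0.80 and 0.75). Such shared deviations widen the error of this step, so the test could miss changes. With the replicate block 0 members passed as well. That block has the same term for a letter on all 6 days, so it cannot fully remove a deviation particular to D14 and D16. In the heavy pool PRC1 fell (-0.67 ± 0.15, adjusted p = 0.00465), beside 10.2 percent of all genes. That count was 0 without letter A. It was 2 without letter B and with the replicate block, ASPM being higher (0.62, adjusted p = 0.0316 with the block).

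Against D0, 1 member was still called lower in the cytoplasm on D14 and on D16, beside 5.05 and 7.26 percent of all genes, a share near that background. The median over the 10 was -0.615 on D14 and -0.569 on D16, against -0.023 and -0.008 over all genes. All libraries of the day lay below all D0 libraries for 6 members on D14 and 4 on D16, and above them for 0. Standard errors of the members exceeded those of the heavy pool, so 1 call does not show a return of the other members. The member called was TPX2, at 8254, 7411 and 8621 on D14 (-0.65 ± 0.16, adjusted p = 0.0135) and at 7318, 7531 and 9497 on D16 (-0.65 ± 0.16, adjusted p = 0.0105). Both calls were lost when any letter was left out and under total-sum scaling (all-gene medians 0.12 and 0.16, share of called genes that were higher 77.5 and 72.8 percent after 60.5 and 56.6). Without letter B, ASPM was higher on D16 (1.45, adjusted p = 0.0276). Cytoplasmic D14 B and D16 B held low values of the AT-rich members and high values of ESPL1. HMMR was at 970, 289 and 1003 on D14 and at 1245, 360 and 1543 on D16 in letters A, B and C, and ESPL1 at 872, 1858 and 969 and at 801, 2032 and 1112. Without D14 B and D16 B, ESPL1 and KIF20A were lower as well on both days (ESPL1 -1.13 on D14 with adjusted p = 0.0194, and -1.10 on D16 with adjusted p = 0.0202). With the GC correction 4 members passed on each day, on D14 all lower (ESPL1, KIF20A, KIF23 and TPX2), on D16 KIF20A, KIF23 and TPX2 lower and ASPM higher (0.99, adjusted p = 0.0338). With the replicate block, ESPL1 and TPX2 were lower on D14.

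In the heavy pool 8 of 10 members were lower than at D0 on D14 (37.6 percent of all genes were) and 8 on D16 (36.6 percent). ASPM was the exception with a call, higher on D16 (36.2 percent of all genes were). Its values were 246, 590 and 276 on D14 and 502, 641 and 449 on D16, against 220, 315 and 308 at D0, and each D16 library was above every D0 library. The difference was 0.30 ± 0.28 on D14 (adjusted p = 0.333) and 0.92 ± 0.28 on D16 (1.89-fold, adjusted p = 0.00502, higher in 3 of 3 letters). It did not pass without letter A (0.78, adjusted p = 0.0598) and passed under the other 10 settings that bear on the heavy pool. CENPE, the other member not called lower, was at 285, 384 and 316 on D16 (0.46 ± 0.42, adjusted p = 0.34).

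PRC1 stood lowest against its start, at 173, 143 and 111 on D16 in the heavy pool (6.38-fold lower, -2.67 ± 0.15, adjusted p = 8.87e-13). ESPL1 was at 956, 943 and 781 (-1.98 ± 0.15, adjusted p = 7.22e-11). KIF23 was at 1218, 1336 and 1451 (-1.68 ± 0.14), KIF20A at 2300, 2571 and 2444 (-1.57 ± 0.13), and TPX2 at 6081, 7262 and 7479 (-1.51 ± 0.11). The D16 libraries of these 5 genes, and of HMMR, KIF11 and CENPF, lay below all of their D0 libraries. Smaller differences were left for HMMR (756, 871 and 842; -0.97 ± 0.22), KIF11 (938, 1216 and 1335; -0.73 ± 0.14) and CENPF (1325, 1877 and 1813; -0.67 ± 0.24). KIF11 and CENPF did not pass under total-sum scaling, nor CENPF without letter C. On D14 CENPF did not pass under it (adjusted p = 0.0524; all-gene median 0.30, share higher 47.8 to 65.0 percent). That scaling moved the median of all genes on D16 from 0.02 to 0.44 and the share of called genes that were higher from 49.7 to 70.7 percent, and ASPM was then at 1.34 and PRC1 at -2.25.

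The order of the levels changed with this. ASPM, the lowest per kilobase in the heavy pool at D0, was at 48.7 per kilobase on D16 and above CENPE (34.8) and PRC1 (25.8), which had become the lowest. TPX2 and KIF20A stayed first and second on every day in both fractions.

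Before the drug, PRC1, KIF20A, ESPL1 and TPX2 had higher normalised counts in the heavy pool than in the cytoplasm. The differences were 1.56 ± 0.50 for PRC1 (adjusted p = 0.0119), 0.92 ± 0.16 for KIF20A, 0.80 ± 0.28 for ESPL1 and 0.64 ± 0.13 for TPX2, beside 26.7 percent of all genes higher. KIF23 had no overlap between fractions and did not pass (0.55 ± 0.34, adjusted p = 0.192). ESPL1 did not pass when any letter was left out (adjusted p 0.0627 to 0.0801) or under total-sum scaling, nor PRC1 without letter C, so that 2 members passed without C. On D1 the heavy pool was higher for 5 members, PRC1, KIF23, KIF20A, KIF11 and TPX2 (31.3 percent of all genes), for 8 without cytoplasmic D14 B and D16 B, and for 9 under total-sum scaling. KIF11 did not pass there with the GC correction (0.34, adjusted p = 0.149), with the block and that correction together, or without letter B or C (adjusted p = 0.0891 and 0.0555). ESPL1 passed with the GC correction (0.76, adjusted p = 0.00288). On D2 KIF20A was higher (0.56 ± 0.16; 23.6 percent of all genes) and TPX2 lower (-0.33 ± 0.13, adjusted p = 0.044; 22.6 percent), and TPX2 did not pass with the replicate block (adjusted p = 0.0693), without letter B or C or without D2 C, and was at 0.16 (adjusted p = 0.461) under total-sum scaling. KIF20A on D2 did not pass without letter A. On D7 PRC1, KIF20A, ESPL1 and TPX2 were higher (30.2 percent), PRC1 by 3.32 ± 0.50 with the 6.20 of cytoplasmic D7 A among its values and by 2.28 without that library. ESPL1 did not pass without D7 A (0.60, adjusted p = 0.114) or without letter A. TPX2 did not pass with the GC correction (0.21, adjusted p = 0.087), with the block and that correction together, or without letter B or C (adjusted p = 0.0642 and 0.478). With the GC correction ASPM (-1.03, adjusted p = 0.00653) and CENPF (-1.09, adjusted p = 0.00332) were lower in the heavy pool. Total-sum scaling moved the share of called genes that were higher from 53.6 to 72.8 percent on D1, from 51.0 to 78.5 on D2 and from 53.4 to 78.1 on D7.

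On D14 and D16, 0 of 10 members differed between the heavy pool and the cytoplasm in limma's test. Few genes of the table did, 1.23 percent on D14 and 0.850 percent on D16 after 45.8 percent at D0; at an unadjusted p under 0.05 they were 1687 and 1369 genes, and 0 members. A change of polysome association, that is the heavy pool change from D0 minus the cytoplasmic one, was tested in a model of all 36 libraries. It was lower for 1 member on D2, TPX2 (-0.97 ± 0.19, adjusted p = 0.00564; 2.03 percent of all genes were lower), a call lost without letter B or C and under total-sum scaling. On D14 it was lower for TPX2, ESPL1 and KIF20A (16.7 percent of all genes), and on D16 for these and PRC1 (17.9 percent). On D1 (4.16 percent of all genes called) and D7 (3.95 percent), 0 members passed, and 2 and 1 of them had an unadjusted p under 0.05.

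Among these 4 genes, KIF20A had the letters closest together. Its association changed by -1.04, -1.12 and -1.08 in letters A, B and C on D16 (-1.08 ± 0.23, adjusted p = 0.00101). TPX2 changed by -0.91, -0.55 and -1.12 (-0.86 ± 0.19, adjusted p = 0.00114). PRC1 changed by -2.04, -2.11 and -2.65 (-2.27 ± 0.71, adjusted p = 0.0155), and ESPL1 by -0.68, -1.97 and -1.10 (-1.25 ± 0.40, adjusted p = 0.019). All 3 letters were thus lower for each of these 4 genes, while for KIF11, HMMR, CENPF and KIF23 letter B, to which cytoplasmic D16 B belongs, went up and the other letters down. Under total-sum scaling the call of KIF20A was the single member call left on D14 and on D16. That scaling moved the share of called genes that were higher from 40.8 to 78.6 percent on D14 and from 39.2 to 74.7 on D16. Without letter C 1 member passed on D14 (KIF20A) and 2 on D16 (KIF20A and TPX2). Without letter B, ESPL1 and TPX2 did not pass on D14, nor ESPL1 and PRC1 on D16, and KIF23 did on both days. ESPL1 on D14 did not pass without cytoplasmic D14 B and D16 B (-0.79, adjusted p = 0.0713).

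**Figure D3:**
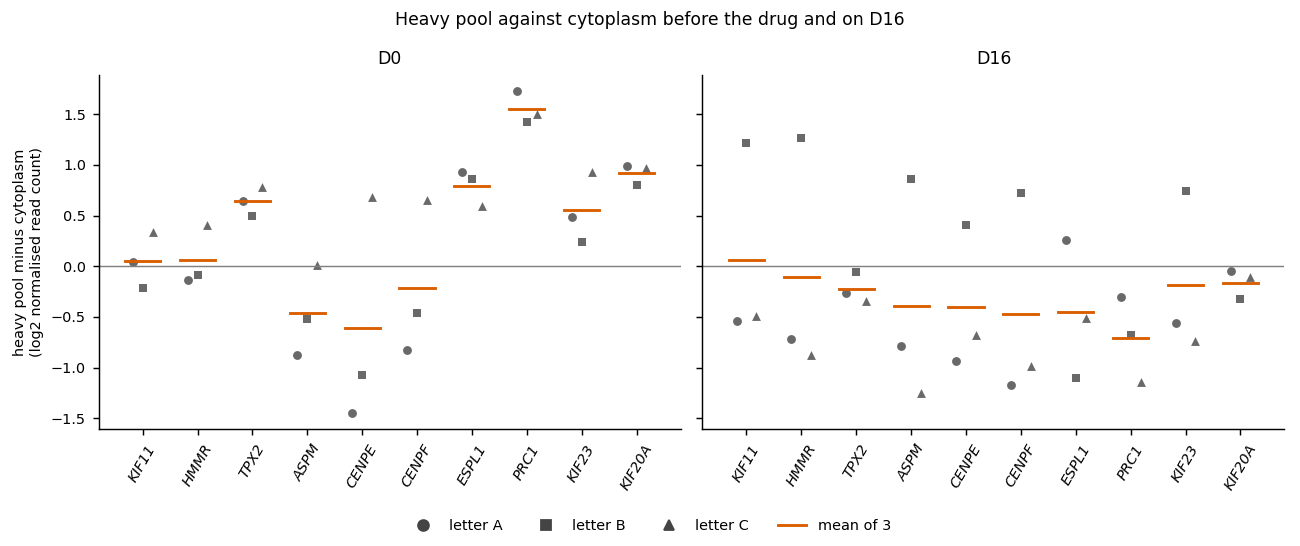
Heavy pool minus cytoplasm (log2 normalised read count) of each gene at D0 and on D16. Symbols are the 3 letters and orange bars their mean: TPX2, ESPL1, PRC1, KIF23 and KIF20A are above 0 in all 3 letters at D0, and on D16 the letters fall on both sides of 0 for all genes except TPX2, PRC1 and KIF20A, which are below it.

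How far a member stayed below its D0 level in the heavy pool ran along the GC content of its transcript. CENPE (35.3 percent GC), HMMR (36.7), ASPM (37.1) and KIF11 (38.3) are AT-rich, with at most 7.4 percent of genes below them, and CENPF (40.8) and KIF23 (42.3) follow. TPX2 (46.8), PRC1 (48.1), KIF20A (48.4) and ESPL1 (57.0) are near or above the median of all genes (49.2). Over the 10 members, r between GC and the heavy pool difference from D0 was -0.78 on D14 and -0.76 on D16, and between GC and the change of polysome association -0.88 and -0.79. Over all genes with a GC value these were -0.06, -0.14, -0.17 and -0.26. In the cytoplasm the member r with the difference from D0 was -0.19 on D14 and -0.41 on D16. For heavy pool against cytoplasm the member r was 0.78 at D0, -0.01 on D14 and -0.32 on D16 (all genes 0.1, -0.15 and -0.4). The change of polysome association subtracts the D0 values, so its r on D14 and D16 includes this relation before the drug. During the drug the relation over all genes was closer for polysome association, at -0.62 on D1 and -0.50 on D2, where the members had -0.86 and -0.69. The points are 10 genes of the same libraries, so the r describes these libraries and carries no test. Longer transcripts also stood higher (r with log2 length 0.67 on D14 and on D16). With the GC correction the heavy pool counts on D14 and D16 remained 8 and 9 calls, and ASPM was at 0.72 on D16 (adjusted p = 0.0187).

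**Figure D4:**
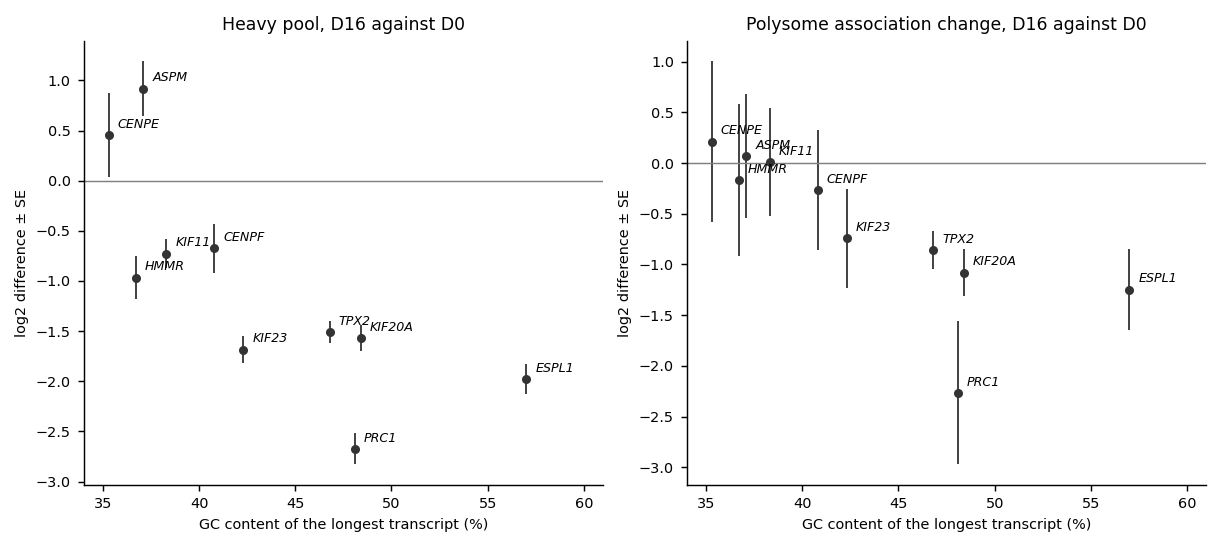
GC content of the longest annotated transcript (%) against the D16 difference from D0 in the heavy pool (left) and against the change of polysome association on D16 (right), each point a gene with its standard error (n = 3 libraries a group). The AT-rich CENPE and ASPM lie above 0 in the left panel, and PRC1 at 48.1 percent GC is the lowest point in both.

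Other genes of cell division were counted from 5 lists. Of all genes tested on D2, 14.2 percent were higher beside the 10.6 percent lower in the cytoplasm, and 30.4 percent beside the 34.5 percent lower in the heavy pool, with medians of -0.001 and -0.03. Of 24 further spindle genes tested, 16 were lower and 0 higher in the cytoplasm on D2 (list median -1.24), and 20 were lower and 1 higher in the heavy pool (-1.25). KIF2C, a microtubule-depolymerising kinesin, was at -3.12 ± 0.15 there, and KIFC1, a minus-end kinesin that bundles spindle poles, at -2.99 ± 0.12. Of 31 kinetochore genes, 14 were lower in the cytoplasm and 26 in the heavy pool on D2 with 0 higher in either (medians -0.96 and -0.92), among them the kinetochore adaptor ZW10 (-1.92 ± 0.11 in the heavy pool). Of 13 cytokinesis genes, 11 and 12 were lower and 0 higher (-1.49 and -1.64), led by the kinase PLK1, at -3.05 ± 0.20 in the cytoplasm and -4.03 ± 0.09 in the heavy pool. The cohesion list of 16 genes had 8 and 12 lower and 0 and 1 higher (-1.01 and -1.03), with the centromeric cohesin protector SGO2 at -2.84 ± 0.66 in the cytoplasm. All 8 condensin genes were lower in the heavy pool and 7 in the cytoplasm (-1.39 and -1.36).

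On D16 the heavy pool still had 21 of the 24 spindle genes lower and 2 higher, 23 of 31 kinetochore genes lower and 3 higher, 12 of 13 cytokinesis genes lower, 12 of 16 cohesion genes lower and 1 higher, and 7 of 8 condensin genes lower, where 36.6 percent of all genes were lower and 36.2 percent higher. In the cytoplasm these counts of lower genes were 9, 13, 4, 2 and 3, and 0 were higher, beside 7.26 percent of all genes lower; the 2 of 16 cohesion genes are near that share. Polysome association on D16 was lower for 12 of 24 spindle, 6 of 13 cytokinesis, 4 of 8 condensin and 2 of 16 cohesion genes with 0 higher, and for 3 of 31 kinetochore genes with 4 higher. Of all genes 17.9 percent were lower and 11.6 percent higher, so the cohesion and kinetochore lists held no larger share of lower genes than all genes did.

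Of 15 regulators that act on such promoters, 14 were tested. CDKN1A, which encodes p21, was 4.51 ± 0.23 higher in the cytoplasm on D2 and 4.70 ± 0.09 higher in the heavy pool, and still 1.33 ± 0.23 and 0.82 ± 0.09 higher on D16. FOXM1, the activator of late cell cycle genes, was lower on D2 (-1.15 ± 0.27 and -1.41 ± 0.09) and on D16 (-1.30 ± 0.27 and -1.19 ± 0.09). MYBL2, which encodes B-MYB, was lower in the heavy pool on D2 (-1.20 ± 0.11) and did not pass in the cytoplasm (-0.43 ± 0.23, adjusted p = 0.179). LIN54, the MuvB subunit that contacts the CHR, did not pass on D2 in the cytoplasm (-0.30 ± 0.49) or the heavy pool (0.14 ± 0.14). In the heavy pool LIN54 was lower on D7 (-0.59 ± 0.14, adjusted p = 0.001), D14 (-0.56 ± 0.14, adjusted p = 0.00136) and D16 (-0.42 ± 0.14, adjusted p = 0.0123). Its cytoplasmic difference on D16 did not pass (-0.56 ± 0.49, adjusted p = 0.48). In all, 8 regulators were lower and 2 higher in the heavy pool on D2, and 2 lower and 1 higher in the cytoplasm. The cytoplasmic counts are near the shares of all genes given above.

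The 10 profiles were compared over the 12 group means, and no r between pairs of other genes is given beside theirs. Pairwise r ran from 0.29 (ASPM with PRC1) to 0.97 (ASPM with CENPE) over 45 pairs, with a median of 0.77. KIF11 lay closest to the mean of the other members (0.98) and PRC1 (0.66) and ASPM (0.69) farthest. Among 11336 further protein-coding genes whose mean reached 100, CKAP2L (0.975), U2SURP (0.970), KIF15 (0.963), HLTF (0.962) and STK36 (0.959) had the profiles most like the mean of the members. The group means share libraries and depth between genes, so these values describe likeness and carry no test.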

How the data were processed

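RNA-seq of 36 libraries (12 groups of 3) was analysed. The deposited values are a signal, the authors' gene counts divided by a size factor for each library. The submitters' processing notes name cutadapt 3.2, STAR 2.7.9a, featureCounts of Subread 2.0.1, DESeq2 1.30.1 and GRCh38, and no strand setting is given in the sources used here. Of 54 columns, 18 matched no sample and were not used. Symbols were found by Ensembl identifier for 15890 of 15891 genes. Divided by the value of 1 read, 100.0 percent of values were whole within 0.01, which gave the read totals.

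A gene was tested where 3 or more libraries of the model reached a value of 10, as all 10 members did in both fractions. On log2(value + 1), limma 3.58.1 (lmFit, and eBayes with a trend, in R 4.3.3) used the 18 libraries of a fraction, or all 36 to compare fractions, with two-sided tests and Benjamini-Hochberg adjustment over all genes tested; the steps were tested on simulated data. The labels give letters as batches, so same-letter libraries are paired. Deviations of same-letter libraries correlated at 0.24 on average within the cytoplasm (highest 0.93), at 0.11 within the heavy pool (highest 0.55) and at -0.02 across fractions. The model had no block, and a replicate block was an alternative, as were other pseudocounts, filters and scalings, a GC correction (a trend of the deviations over gene GC content removed from each library) and leaving out each letter; 3 alternatives that leave out single libraries were chosen after seeing the data.

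Members, gene lists and tests were chosen with earlier results of these data known. All members are named in each comparison where they passed, further genes by the size of their difference within a list or by likeness of profile. LIN54, with its D7 and D14 values and the D16 values of the regulators, was named after the values were seen.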

Additional observations from a re-analysis of the deposited data

Results flagged for a closer look

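The change in the heavy pool differed from that in the cytoplasm, by the interaction term of limma with Benjamini-Hochberg adjustment over 15891 genes, for 8 of the member results. TPX2 changed by -0.97 on D2, -0.72 on D14 and -0.86 on D16. ESPL1 changed by -1.13 on D14 and -1.25 on D16. KIF20A changed by -1.004 on D14 and -1.08 on D16, and PRC1 by -2.27 on D16. Each was lower in 3 of 3 letters. Beside these stand 2.03, 16.7 and 17.9 percent of all genes lower on D2, D14 and D16, and a fall of the share of all genes that differed between the fractions from 45.8 percent at D0 to 0.850 percent on D16. The part of that fall in the member results was not tested.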

How the results depend on the processing

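Of 290 member differences, 290 with a pseudocount of 0.5 or no filter, 287 with a pseudocount of 10 and 289 with TMM scaling were unchanged. The 3 others with a pseudocount of 10 moved in size but kept their direction and their side of the threshold. Unchanged were 234 with total-sum scaling, 277 with the replicate block, 243 with GC correction and 237 with both. Without letter A, B or C they were 249, 226 and 231. They were 279 without D7 A, 255 without D14 B and D16 B, and 278 without D2 C. The edgeR and DESeq2 tests that had been planned were not run. Counts of members called that moved by more than 1.5 times are given here against the count reported, and their cause was not tested. Shares of all genes called under these settings are not given, so a moved count need not be particular to the members. In the cytoplasm, D1 against D0 went from 3 to 7 with the replicate block, 6 with the block and GC correction, 5 without D7 A, 6 without D14 B and D16 B, and 0 to 1 without a letter. D2 against D0 (9) ranged from 5 to 9 and D7 against D0 (8) from 4 to 8 without a letter. D14 against D0 went from 1 to 0 with total-sum scaling, 2 with the replicate block, 4 with GC correction, 5 with both, 3 without D14 B and D16 B, and 0 without any letter. D16 against D0 went from 1 to 0 with total-sum scaling, 4 with GC correction, 6 with GC correction and replicate block, 3 without D14 B and D16 B, and 0 to 1 without a letter. D2 against D1 went from 2 to 0 with total-sum scaling, 7 with GC correction, 7 with the replicate block added to it, and 0 to 2 without a letter. D7 against D2 went from 1 to 0 with total-sum scaling, 3 with the replicate block, 3 with GC correction, 3 with both, 0 without D7 A, 2 without D14 B and D16 B, and 0 to 1 without a letter. D14 against D7 went from 5 to 8 without D14 B and D16 B and 2 to 9 without a letter. Change on any day (9) ranged from 5 to 9 without a letter. In the heavy pool, D14 against D7 (8) ranged from 5 to 8 without a letter, and D16 against D14 went from 1 to 2 with the replicate block and 0 to 2 without a letter. Heavy pool against cytoplasm ranged from 2 to 4 without a letter at D0 (4), went from 5 to 9 with total-sum scaling and 8 without D14 B and D16 B at D1, and from 2 to 1 with the replicate block and 1 to 2 without a letter at D2. Polysome association went with total-sum scaling from 1 to 0 on D2, 3 to 1 on D14 and 4 to 1 on D16, and without a letter to 0 to 1, 1 to 3 and 2 to 4. The sign turned in 2 results, both for heavy pool against cytoplasm at D2: TPX2 from -0.33 to 0.156 with total-sum scaling, and ASPM from 0.03 to -0.745 without letter B (adjusted p = 0.0405; 0.441 without letter C). The replicate block moved no other count by over 1.5 times. Polysome association had standard errors of 0.19 (TPX2) to 0.80 (CENPE), so smaller shifts of the noisier members were not detectable with 3 libraries a group.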
